A study of Rattus norvegicus with 30 samples.

Results

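S100 genes encode small calcium-binding proteins of the EF-hand class, and they were followed here in rat hippocampus after kainate. A probe set, the group of oligonucleotides that reads 1 transcript on an Affymetrix array, was included when the platform annotation gave it exactly 1 gene symbol and that symbol begins with S100. The rule found 13 probe sets for 8 genes, S100a1, S100a4, S100a7l2, S100a8, S100a9, S100a10, S100b and S100g, among 7006 probe sets for 4736 genes. The family and its leading members S100a4, S100a10 and S100b were chosen by their log2 differences between kainate and PBS at the 5 times, measured on these same arrays, so every kainate difference of an S100 gene below is a description with no p-value. The number of S100 probe sets past the limma threshold is given beside the share of all probe sets past it, and nothing is read from it.

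RNA came from 10 groups of rats with 3 arrays each, 30 arrays in all. The kainate rats received kainate, a glutamate receptor agonist that provokes seizures, and were killed 1, 6, 24, 72 or 240 h later. The control rats received phosphate-buffered saline (PBS) and were killed at the same times. The labels give the tissue as hippocampus and name no strain, sex, age, dose or route. They do not say whether an array holds 1 animal or a pool, so the spread between arrays may be technical. Neuron markers were high, with Nefl, Snap25 and Map2 on top, although Slc17a7, the vesicular glutamate transporter of excitatory neurons, lay at the floor on all arrays. Values are signal intensities scaled to a common array level, and a floor was set at a signal of 10.95, below which values have no order. Log2 differences are kainate minus PBS with the standard error (SE) of a limma fit across all probe sets. Every group has 3 arrays, and the SE of the tested S100 probe sets ran from 0.13 (S68809_s_at of S100a1) to 0.52 (rc_AI013389_at of S100g).

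S100 proteins form dimers that open on binding calcium and then grip a target protein. S100A10, also called p11, is the exception: it has lost calcium binding and is held open, mostly in a complex with annexin A2 at the plasma membrane, where it binds plasminogen and carries channels and receptors. S100A4 binds nonmuscle myosin and is known from motile cells, fibroblasts, macrophages and some white matter astrocytes. S100B is made mainly by astrocytes and some cells of the oligodendrocyte lineage. When released, S100 proteins act on the receptor RAGE, and S100A8 with S100A9 also act on Toll-like receptor 4. In bulk tissue a change in the number of cells of a type cannot be told apart from a change in RNA per cell.

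S100a4 was the S100 gene with the largest difference, and it was late. At 24 h its probe set X06916_at read 259, 398 and 337 on the kainate arrays, against 53.4, 37.1 and 40.2 on the PBS arrays. All 3 kainate arrays lay far above all 3 controls, at a mean of 331 ± 69.8 after kainate and 43.6 ± 8.64 after PBS (SD, n = 3 each). The difference was 2.92 ± 0.28 (log2, SE), or 7.58-fold, which ranked 4 among 3702 tested genes from the highest down.

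Before 24 h S100a4 stayed at the level of the controls. At 1 h it read 42.7, 42.9 and 40.3 after kainate and 39.9, 44.2 and 35.0 after PBS. At 6 h it read 44.8, 52.7 and 35.6 after kainate and 47.0, 59.1 and 44.8 after PBS, and the groups overlapped at both times, with log2 differences of 0.09 ± 0.28 and −0.19 ± 0.28 (SE).

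At 72 h S100a4 was still apart from its controls. It read 143, 89.1 and 67.9 on the kainate arrays, against 47.4, 24.3 and 36.9 on the PBS arrays. The groups did not overlap, but the kainate arrays differed among themselves by more than at 1 or 6 h, and the highest was replicate 1. The log2 difference was 1.45 ± 0.28 (SE), or 2.73-fold and it again ranked 4 among 3702 genes. At 240 h the arrays read 39.7, 72.6 and 51.5 after kainate and 37.7, 41.2 and 42.9 after PBS, which overlap (0.39 ± 0.28, log2, SE).

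S100a10 differed earlier and by less. At 6 h its probe set J03627_at read 183, 167 and 184 on the kainate arrays, against 107, 103 and 86.2 on the PBS arrays. Every kainate array was above every control, with a log2 difference of 0.86 ± 0.29 (SE), or 1.81-fold, and rank 120 of 3702 genes. At 24 h it read 640, 793 and 808 after kainate and 133, 147 and 132 after PBS. Here the groups lay farthest apart, at a mean of 747 ± 93.3 after kainate and 137.5 ± 8.56 after PBS (SD, n = 3 each), a log2 difference of 2.44 ± 0.29 (SE), or 5.41-fold, at rank 7.

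At the other times S100a10 was nearer to its controls. At 72 h it read 139, 118 and 98.5 on the kainate arrays, against 76.6, 68.1 and 81.1 on the PBS arrays, still without overlap (0.64 ± 0.29, log2, SE, 1.56-fold). At 1 h it read 178, 191 and 71.2 after kainate and 147, 133 and 114 after PBS. Kainate replicate 3 was the lowest array of that time and replicates 1 and 2 the highest, so the difference of 0.04 ± 0.29 (log2, SE) averages arrays on both sides of the controls, and without replicate 3 it was 0.50. At 240 h the readings were 42.0, 87.7 and 112 after kainate and 108, 80.8 and 74.2 after PBS, with a difference of −0.22 ± 0.29 (log2, SE) that rests on kainate replicate 1, since without it the difference was 0.20.

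**Figure D1:**
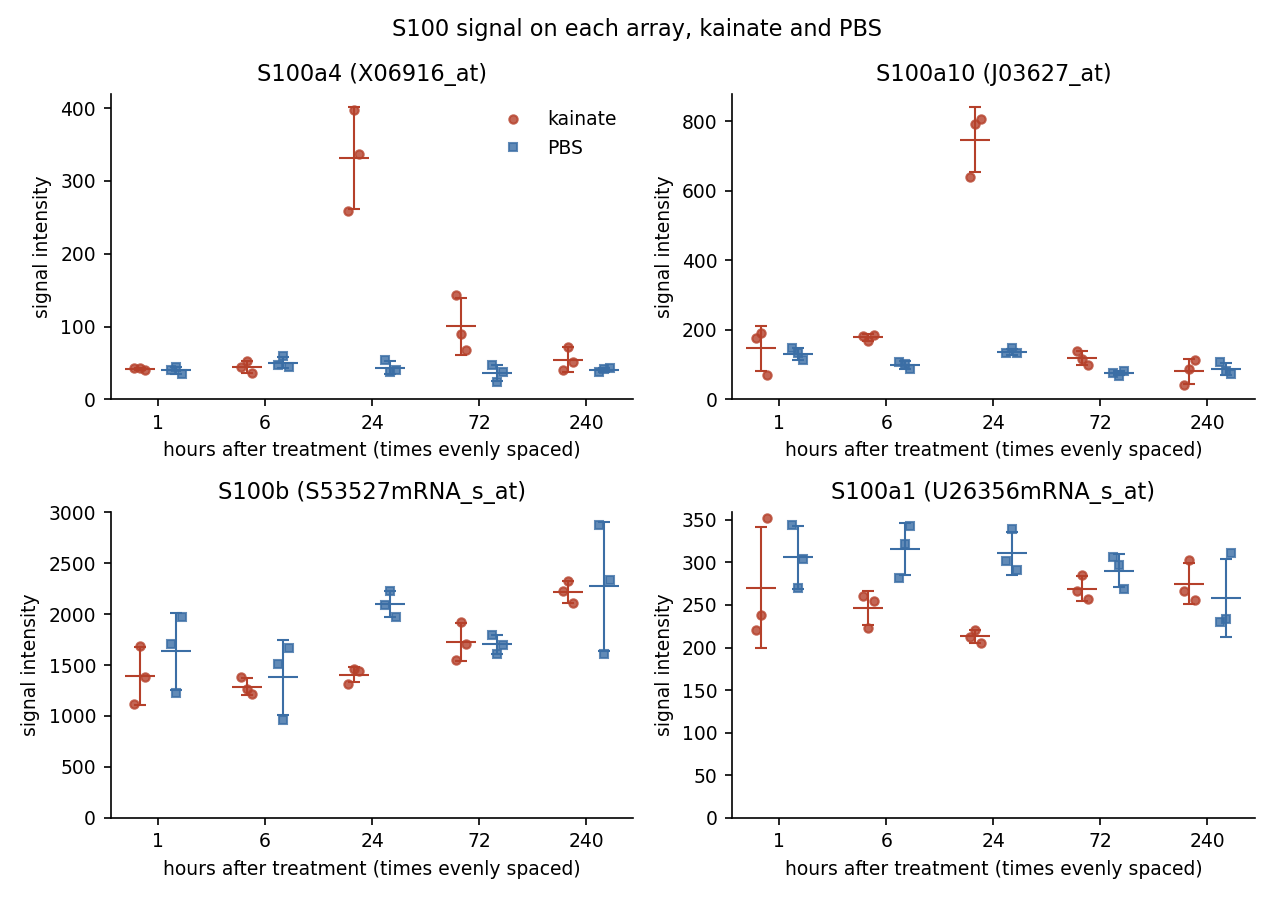
Signal intensity (linear axis from 0) of 4 S100 probe sets on each of 30 arrays by hours after treatment, kainate left of PBS, with the mean as a line and the SD as a bar (n = 3). S100a4 and S100a10 stand far above PBS at 24 h, at means of 331 and 747. At that time S100b and the S100a1 probe set shown, U26356mRNA_s_at, lie below PBS.

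S100b, whose probe set S53527mRNA_s_at gave the highest signals of the family, showed the opposite sign at 24 h. It read 1318, 1459.7 and 1438 on the kainate arrays, against 2085, 2228 and 1973 on the PBS arrays. The groups did not overlap, and the kainate mean of 1405 ± 76.2 stood against a PBS mean of 2095 ± 128 (SD, n = 3 each), 1.49-fold lower (log2 −0.58 ± 0.19, SE). The size is a fraction of that of S100a4 or S100a10, and it ranked 486 among the 3702 genes from the lowest up.

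At no other time did the kainate and PBS arrays separate for S100b. At 1 h the kainate arrays spanned 1120.0 to 1689.5 and the PBS arrays 1226 to 1967 (log2 −0.22 ± 0.19, SE). At 6 h the spans were 1213 to 1381 after kainate and 963 to 1664 after PBS (−0.06 ± 0.19). At 72 h they were 1551 to 1926 after kainate and 1612 to 1798 after PBS (0.02 ± 0.19), and at 240 h 2106 to 2328 after kainate and 1609.8 to 2874 after PBS (0.01 ± 0.19). The kainate mean of 1405 at 24 h lay above the PBS mean of 6 h (1379) and below those of 1 h (1633), 72 h (1702) and 240 h (2271). A second S100b probe set, rc_AI146214_at, was dim, with a median of 19.0 over the 30 arrays and 1 array above the level needed for testing, and gave −0.13 (log2) at 24 h, where the groups overlapped, and −0.71 at 72 h, where they did not.

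The promoters of S100a4 and S100b are shown because these genes stood at opposite ends of the family at 24 h. Each is the 250 bases before the gene's start in RefSeq (rat assembly GRCr8), S100a4 at chr2:178388279-178388528 on the plus strand and S100b at chr20:12381082-12381331 on the minus strand. Capitals mark matches to the motifs searched.
S100a4: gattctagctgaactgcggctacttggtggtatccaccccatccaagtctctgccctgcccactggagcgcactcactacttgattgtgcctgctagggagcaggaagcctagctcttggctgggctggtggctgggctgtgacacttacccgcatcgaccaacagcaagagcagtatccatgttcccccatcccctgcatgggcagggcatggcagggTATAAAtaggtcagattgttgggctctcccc
S100b: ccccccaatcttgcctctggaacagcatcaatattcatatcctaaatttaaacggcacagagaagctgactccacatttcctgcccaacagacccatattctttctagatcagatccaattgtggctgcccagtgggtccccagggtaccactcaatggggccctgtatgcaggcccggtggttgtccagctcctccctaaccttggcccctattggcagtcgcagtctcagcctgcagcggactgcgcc

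S100a4 held a TATA box (TATAAA) 31 to 26 bases before its start, a motif found in 12.9% of 33469 rat promoter windows of this length. S100b held none of the motifs searched. These were, on both strands, the TATA box, the AP-1 motif TGANTCA (in 6.34% of windows), the STAT motif TTCNNNGAA (7.67%), the C/EBP motif TTNNGNAA (37.2%) and the CRE motif TGACGTCA (1.59%). The table holds 4 of the 8 measured S100 genes, the other 2 being S100a9, with a TATA box and a C/EBP match, and S100a7l2, with a C/EBP match. No match of 1 motif overlapped a match of another, and a missing match says only that these letters are not in the window.

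S100a1, a family member best known from heart and skeletal muscle, where it acts on calcium release channels, has 4 probe sets that did not move alike. U26356mRNA_s_at read 213, 221 and 206 on the kainate arrays of 24 h, against 302, 339 and 290.5 on the PBS arrays, all 3 lower (log2 −0.54 ± 0.15, SE, 1.46-fold lower). S68809_s_at read 197, 183 and 174 after kainate and 181, 204 and 194 after PBS at the same time, which overlap (−0.06 ± 0.13). For rc_AI228548_g_at the difference was 0.13 ± 0.22 (log2, SE), and the dim rc_AI228548_at was not tested. So the lower S100a1 value at 24 h comes from 1 of 3 tested probe sets.

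At 6 h the 3 tested S100a1 probe sets did run the same way. S68809_s_at read 154, 132 and 139.6 after kainate and 163, 188 and 177 after PBS. All kainate arrays lay below all PBS arrays for each of the 3, with log2 differences of −0.36 ± 0.15, −0.31 ± 0.13 and −0.41 ± 0.22 (SE), while the median of all 6303 tested probe sets was −0.11 at that time. At 72 h S68809_s_at and rc_AI228548_g_at lay above the controls on every array, by 0.27 ± 0.13 and 0.24 ± 0.22, whereas U26356mRNA_s_at overlapped them (−0.11 ± 0.15). Across the 30 arrays S68809_s_at and rc_AI228548_g_at correlated at r = 0.61, and U26356mRNA_s_at correlated with them at r = 0.16 and −0.15. These correlations are descriptions over arrays that share their group structure.

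The calgranulins S100a8 and S100a9, which together form calprotectin in neutrophils and monocytes, were close to background. S100a8 (rc_AA957003_at) lay at the floor on all 15 PBS arrays and on 27 of 30 arrays. The 3 exceptions were all kainate arrays, replicate 2 of 24 h at 31.0 and replicates 1 and 2 of 240 h at 16.2 and 31.0. S100a9 (L18948_at) lay at the floor on 21 of 30 arrays and reached 20.6 at most, on kainate replicate 1 of 24 h. Neither was bright enough to be tested.

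Of the neutrophil markers 4 of 10 were on the array and 2 were tested, and Mpo and Elane, which define these cells, were not analysed here. Of the tested pair Mmp9, a matrix protease that other cells make too, rose at 6 and 24 h, where 2.89% and 4.94% of all tested genes did. The summed signal of the 4 spanned 121 to 122 on the kainate arrays of 6 h, against 55.9 to 86.0 on the PBS arrays, while S100a8 was at the floor on all of these. At 24 h it spanned 134 to 144 after kainate and 61.5 to 105 after PBS. At 240 h it ran from 100.1 to 114 after kainate and 61.8 to 91.5 after PBS, and their part in the S100a8 readings was not tested.

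The remaining members were dim. S100a7l2 (rc_AI639027_at) stayed between 24.8 and 50.5 on all arrays, with kainate below PBS without overlap at 6 h (log2 −0.37 ± 0.25, SE) and 72 h (−0.31 ± 0.25). S100g, calbindin-D9k, a vitamin D-dependent protein of the intestine, ranged from 4.20 to 48.4 by rc_AI013389_at, which passed the brightness level on just 3 arrays, and from 2.59 to 47.7 by K00994mRNA_s_at, which was not tested. The S100g groups overlapped at every time by both probe sets.

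Counted over the family, 8 of 13 probe sets were bright enough to be tested, and the counts describe these 8, not every S100 gene. The family was chosen by these same kainate differences, so the calls are no test of it. At 24 h 2 of 8 were called higher by limma at an adjusted p under 0.05, S100a4 and S100a10, where 5.03% of all tested probe sets were, and 2 of 8 lower, S100b and S100a1, where 6.3% were (11.3% in either direction). The groups of the same 4 did not overlap, where 12.5% of all tested probe sets lay above and 15.6% below, 28.1% together. The S100b call was lost in each of the 6 fits without an array of 24 h and under 4 of 7 other settings. The S100a1 call was lost in 3 of those 6 fits, without kainate replicate 1, kainate replicate 3 or PBS replicate 2. It held under 6 of those 7 settings, but not with the 6 arrays of 24 h alone.

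At 72 h S100a4 was 1 of 3 probe sets called in the whole table, where 0.0476% were called. Differences at 72 h were also among those that chose the family, so the S100a4 call is a description. That call was lost without kainate replicate 1 or 2 and without PBS replicate 2 or 3 of 72 h in the 6 fits that each left out an array of that time, and under 3 of 7 other settings. None of the 8 was called at 1, 6 or 240 h by limma. At an unadjusted p under 0.05 were 0, 3 and 0 of them, beside 610, 928 and 767 of all 6303 tested probe sets. Those of 6 h were U26356mRNA_s_at and S68809_s_at of S100a1 and the probe set of S100a10. Called shares of the table were 1.09% at 1 h, 3.93% at 6 h (3.24% higher, 0.698% lower) and 0.0476% at 240 h. At 1 h 0.904% were higher and 0.19% lower. At 6 h the groups did not overlap for 1 of 8 with kainate above, where 9.65% of all tested probe sets did so, and for 4 of 8 with kainate below, where 18% did (27.7% together). Those below were the 3 tested S100a1 probe sets and that of S100a7l2. At 72 h it was 4 of 8 above (10.1% of all) and 1 of 8 below (12% of all, 22.1% together). Those above were S100a4, S100a10 and, of S100a1, S68809_s_at and rc_AI228548_g_at. None of the 8 was apart at 1 h, where 4.73% of all tested probe sets lay above and 5.55% below (10.3% together), or at 240 h, where 9.58% lay above and 4.89% below (14.5% together). The median log2 difference of the 8, 3 of them from S100a1, was −0.33 at 6 h and 0.02 at 24 h, beside −0.11 and −0.05 for all tested probe sets.

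**Figure D2:**
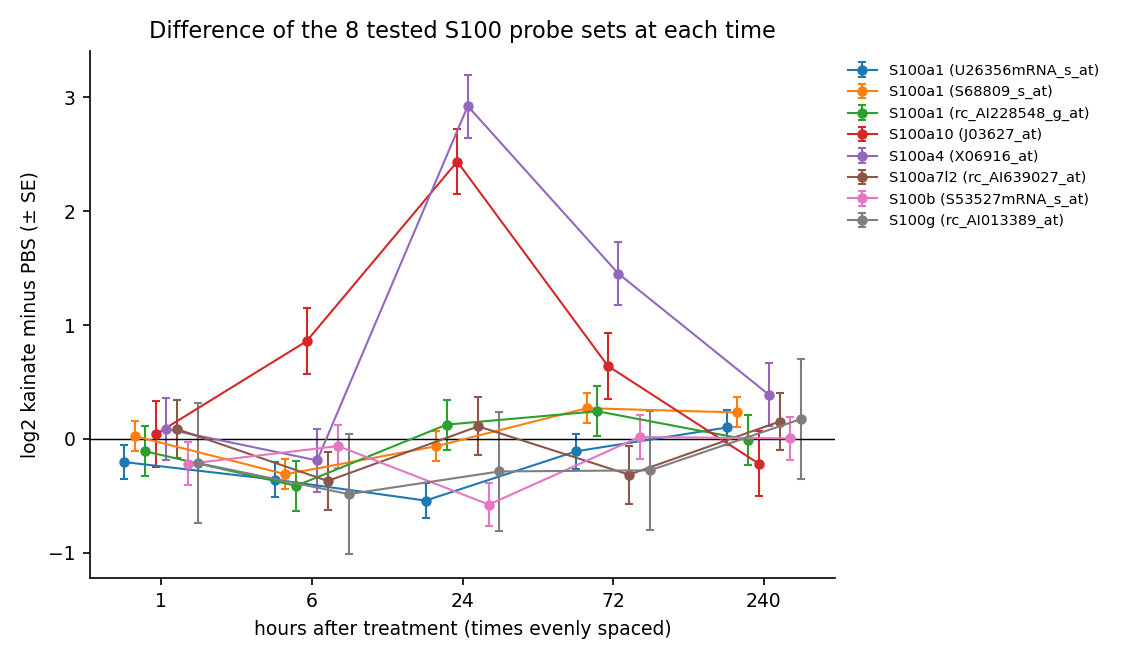
Log2 kainate minus PBS with its SE (n = 3 arrays a group) for the 8 tested S100 probe sets at 1, 6, 24, 72 and 240 h, on an axis with the times evenly spaced. S100a4 and S100a10 reach 2.92 and 2.44 at 24 h, S100b and 1 S100a1 probe set lie at −0.58 and −0.54, and all 8 lie between −0.22 and 0.39 at 240 h.

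The PBS arrays entered the differences that chose the family, so the levels of its members between PBS groups are descriptions too. The mean S100b signal was highest 240 h after PBS, at 2271 ± 634, and next highest after 24 h, at 2095 ± 128 (SD, n = 3 each). The 72 h group followed with 1702 ± 93.0 and the 1 h group with 1633 ± 375, and the 6 h group was lowest with 1379 ± 369 (SD, n = 3 each). Apart from the 24 and 72 h groups, neighbours in this order overlapped. By the limma F test among the 5 PBS groups 1 of 8 S100 probe sets was called, S100b, where 16.9% of all tested probe sets were. That call was lost without PBS replicate 2 of 6 h, replicate 1 or 2 of 24 h, or replicate 1 or 3 of 240 h, and under 5 of 7 other settings.

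The PBS arrays of 6 and 72 h stood apart from those of 1, 24 and 240 h across the whole table, a split that was itself seen in these data, with 20.1% of all tested probe sets called between them and 1 of 8 S100 probe sets, S100b. Its log2 difference was −0.37 ± 0.12 (SE), although its PBS mean at 72 h was above that at 1 h. The call was lost without PBS replicate 1 or 3 of 1 h, 2 of 6 h, 2 of 24 h, 2 or 3 of 72 h, or 1 or 3 of 240 h, and under 5 of 7 other settings. The PBS means of S100a10 ran from 75.3 ± 6.63 at 72 h to 137.5 ± 8.56 at 24 h (SD, n = 3 each). The 5 PBS means of S100a4 lay between 36.2 and 50.3.

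Marker sums of cell types also differed between the PBS groups. The summed signal of the 7 oligodendrocyte markers on the array, with Mbp, Cnp and Mag on top, spanned 12807 to 13980 in the PBS group of 240 h and 10545 to 11213 in that of 72 h. The earlier PBS groups were lower, with 8521 to 8782 for 24 h, 7933 to 8136 for 6 h and 6858 to 8821 for 1 h. The astrocyte sum spanned 8309 to 9627 in the PBS group of 240 h, 7961 to 8647 in that of 72 h and 7819 to 8037 in that of 24 h, beside 7134 to 8643 for 6 h and 7709 to 8163 for 1 h. The endothelium and blood sum spanned 4599 to 5556 in the PBS group of 240 h and 3302 to 4204 in that of 24 h, and 2499 to 3507 over the other PBS groups. The part of these cell types in the S100b levels was not tested.

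Genes whose products work with S100 proteins were followed in 6 lists with 69 genes, of which 45 could be tested. Over all lists 6 genes rose at 6 h and 0 fell, where 2.89% and 0.891% of all tested genes did by limma (3.78% in either direction). At 24 h 7 rose and 5 fell, where 4.94% and 7.13% of all tested genes did (12.1% together). At 1 h 1 of 45 rose and 0 fell, where 0.621% and 0.135% of genes did (0.756% together). At 72 and 240 h 0 of 45 passed by limma, and 0.054% of all tested genes passed at each of these times, as higher. At an unadjusted p under 0.05 were 9 and 8 of the 45, beside 234 and 453 of all 3702 tested genes.

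Of 8 tested partners and clients of S100A10, 3 rose at 24 h and none fell, with a median log2 difference of 0.12, beside −0.06 for all tested genes. Anxa2, the annexin that anchors S100A10 at the membrane, read 254, 199 and 208 on the kainate arrays, against 106, 147 and 141 on the PBS arrays. It was higher on every kainate array (log2 0.75 ± 0.19, SE, 1.68-fold, limma adjusted p = 0.0112), but the call was lost without kainate replicate 1 or PBS replicate 1 of 24 h (adjusted p up to 0.0673). At 6 h, when S100a10 was already apart from its controls, Anxa2 overlapped them (log2 0.39 ± 0.19).

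Among the listed channels and receptors that S100A10 carries, none passed at any time. At 24 h the log2 differences were −0.69 ± 0.48 for Htr1b, −0.66 ± 0.30 for Asic1, −0.52 ± 0.30 for Grm5 and 1.40 ± 0.51 for Htr4 (SE).

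Genes of plasminogen activation and proteolysis made up the other passing members of that list. Plat, tissue plasminogen activator, which converts the plasminogen that S100A10 binds, rose at 1, 6 and 24 h. At 6 h it read 265, 286 and 339 after kainate and 129.6, 104 and 93.7 after PBS (2.73-fold, limma adjusted p = 3.21e-06). At 1 h it rose 1.77-fold (adjusted p = 0.0181), which failed in 4 of 6 fits without an array of that time (kainate replicate 1 or 2, PBS replicate 1 or 3), and over all alternatives its adjusted p ran from 0.00326 to 0.395. At 24 h it rose 1.73-fold (adjusted p = 0.00667). Plaur, the urokinase receptor, rose 4.43-fold at 6 h (80.2 ± 12.8 after kainate, 18.2 ± 3.65 after PBS, SD, n = 3 each, adjusted p = 0.000103). Apart from the kainate arrays of 6 h, Plaur passed the brightness level for testing only on kainate replicate 1 of 1 h (41.3). The filter thus favoured its 6 h call, which held under all 7 other settings, among them no filter on dim probe sets. At 24 h Plaur was dim, at 15.3 ± 3.95 after kainate and 21.1 ± 1.08 after PBS (SD, n = 3 each), with all kainate arrays below and a log2 difference of −0.50 ± 0.35 (SE) that did not pass. Ctsb, the lysosomal protease cathepsin B, rose 1.67-fold at 24 h (adjusted p = 0.00509).

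Of 6 other annexins 1 rose at 24 h, Anxa5, a calcium-dependent phospholipid binder, at 329.9, 352 and 339 after kainate and 211, 235 and 217 after PBS (1.54-fold, limma adjusted p = 0.00282). The annexins had a median log2 difference of 0.50 at 24 h. Anxa1, a partner of other S100 proteins, had 0.73 ± 0.43, and Anxa3 0.97 ± 0.33 (log2, SE), and neither passed. Of the S100 receptors and their signal 3 of 8 genes could be tested, Bsg, Fgfr1 and Nfkb1, with a median log2 difference of 0.38 at 24 h, while Ager, which encodes RAGE, and Tlr4 were too dim. Nfkb1, a subunit of the NF-kappaB transcription factor, rose 2.20-fold at 6 h (limma adjusted p = 0.0141), a call lost without kainate replicate 1 or PBS replicate 2 of 6 h (adjusted p up to 0.147).

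Of 6 tested targets of S100A4 and S100B, 1 rose and 2 fell at 24 h, with a median log2 difference of −0.22. Vim, the intermediate filament vimentin, read 1158 ± 133 on the kainate arrays and 197 ± 10.3 on the PBS arrays (SD, n = 3 each), 5.85-fold higher (limma adjusted p = 1.65e-09). Aldoc, an astrocytic aldolase, fell at 24 h to 1137 ± 174 after kainate, against 2004 ± 52.5 after PBS (1.78-fold lower, adjusted p = 8.80e-05), next to S100b at 1.49-fold lower. Gap43, a growth cone protein that S100B binds, was 1.48-fold lower (adjusted p = 0.0179), a call lost without PBS replicate 1 or 2 or kainate replicate 3 of 24 h (adjusted p up to 0.161).

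Among 13 tested EF-hand proteins outside the S100 family, 0 rose and 3 fell at 24 h, with a median log2 difference of −0.37. Hpca, the neuronal calcium sensor hippocalcin, was 1.56-fold lower (limma adjusted p = 0.000974) and its relative Vsnl1 1.45-fold lower (adjusted p = 0.00688). Pvalb, parvalbumin of fast-spiking interneurons, was 1.47-fold lower (adjusted p = 0.0452), but passed in 1 of 6 fits without an array of 24 h, the one without kainate replicate 1, and in 2 of 7 other settings (adjusted p up to 0.288). Of 10 tested reactive astrocyte genes 3 rose at 6 h and 3 at 24 h, where 2.89% and 4.94% of all tested genes did. Their median log2 difference was 0.07 at 6 h and 0.74 at 24 h. Socs3, which dampens cytokine receptor signals, was 7.99-fold higher at 6 h (adjusted p = 1.96e-06). Apart from the kainate arrays of 6 h, Socs3 passed the brightness level for testing only on kainate replicate 2 of 1 h (61.6). The filter thus favoured its 6 h call, which held under all 7 other settings, among them no filter on dim probe sets. Cd44, a hyaluronan receptor, was 3.52-fold higher at 6 h (adjusted p = 3.14e-05) and higher by 1.81 on the log2 scale at 24 h (adjusted p = 5.90e-05). Timp1, a metalloproteinase inhibitor, rose 1.86-fold at 6 h (adjusted p = 0.00927) and 3.74-fold at 24 h (adjusted p = 4.20e-07), and its 6 h call was lost without kainate replicate 3 or PBS replicate 1 or 3 of that time (adjusted p up to 0.0639).

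**Figure D3:**
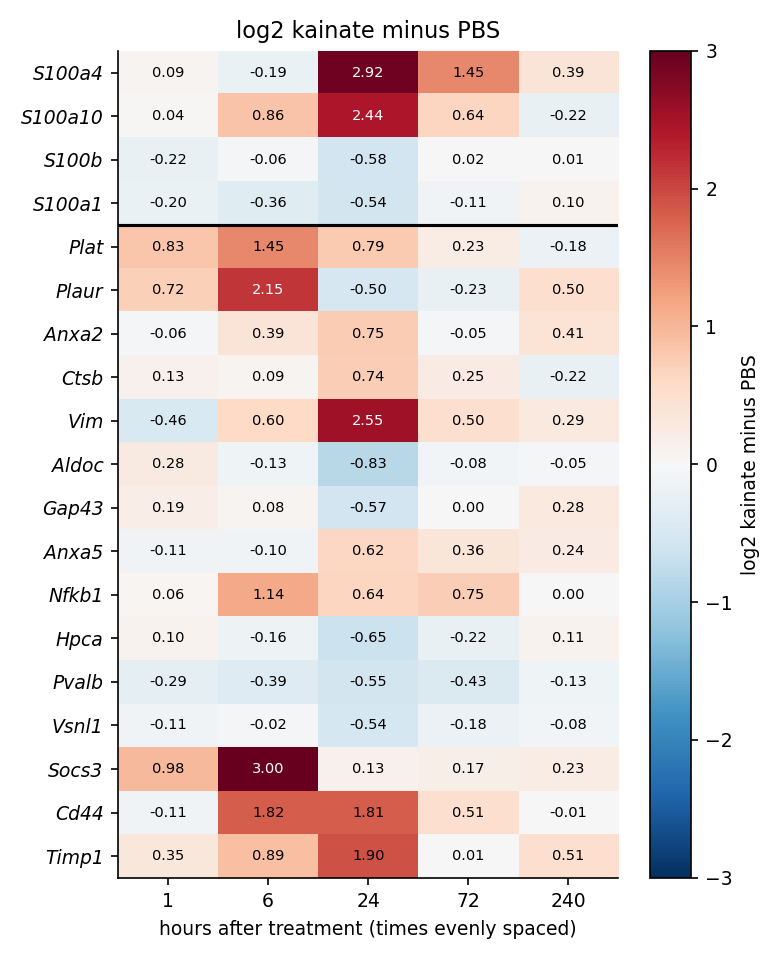
Log2 kainate minus PBS (colour and printed value) at 1, 6, 24, 72 and 240 h for S100a4, S100a10, S100b and S100a1 above the line and for the named genes of the lists below it, 1 probe set a gene. The S100a4 and S100a10 rows peak at 24 h like Vim (2.55) and Timp1 (1.90), whereas Socs3 and Plaur (2.15) peak at 6 h.

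Markers of the cell types in this tissue shifted at 24 h beside the S100 genes. Of 9 tested microglia and macrophage markers 3 rose, C1qb, Cd74 and Cyba, where 4.94% of all tested genes rose and 7.13% fell. Cyba passed the brightness level for testing only on the kainate arrays of 24 h (80.9, 149 and 111). The filter thus favoured its call as higher at that time. The summed signal of the 11 microglia and macrophage markers on the array spanned 1034 to 1366 after kainate and 573 to 686 after PBS. Of 9 tested astrocyte markers Fabp7 rose and Aldoc fell, and their sum overlapped at 7919 to 8726 after kainate and 7819 to 8037 after PBS. Gfap was not analysed here.

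At 24 h, where 4.94% of all tested genes rose and 7.13% fell, 4 of 11 tested neuron markers fell, Camk2a, Nefl, Nefh and Gria1. The neuron sum was 5600 to 5920 after kainate against 6724 to 7077 after PBS. None of 7 oligodendrocyte markers passed at 24 h, but their sum spanned 7243 to 7821 after kainate and 8521 to 8782 after PBS without overlap. Fibroblast and meningeal markers had 1 of 8 higher, Igfbp2, with sums of 1628 to 1876 after kainate and 1462 to 1589 after PBS. Of 9 endothelium and blood markers 2 fell, Slco1a4 and Slc4a1, with sums of 2804 to 3867 after kainate and 3302 to 4204 after PBS. None of 3 tested choroid plexus markers passed, and their sums, mostly Ttr, overlapped at 2399 to 5238 after kainate and 876 to 3250 after PBS. At 72 h the microglial sums overlapped, at 664 to 773 after kainate and 588 to 735 after PBS. The part of these markers in the S100 differences was not tested.

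The genes most like each S100 gene were ranked by Pearson r of log2 signal over the 30 arrays, which share their groups and scaling. S100a4 was most like Cyba, which encodes a chain of the superoxide-making NADPH oxidase of phagocytes, at r = 0.90, followed by RT1-Da, a class II histocompatibility chain (0.86), Lgals3, a galectin of activated macrophages (0.82), Gpx1, glutathione peroxidase (0.82), and Fabp7, a fatty acid-binding protein of astrocytes and progenitors (0.81). Cyba read 80.9, 149 and 111 on the kainate arrays of 24 h, in the same order as S100a4, against 18.0, 22.0 and 23.1 on the PBS arrays. Cyba passed the brightness level for testing on those kainate arrays alone, so its place among the tested genes rests on them. Without the 3 kainate arrays of 24 h r was 0.49 for Cyba and 0.11 for Gpx1, and within groups, over deviations from group means, it was 0.12 for Cyba.

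S100a10 was most like Vim (r = 0.93), followed by Cnn3, an actin-binding calponin (0.91), Tmsb15b2, a thymosin (0.88), Igfbp2, which binds insulin-like growth factors (0.86), and Ifitm3, an interferon-induced membrane protein (0.86). These relations held more of their size within groups, at 0.48 for Vim, 0.66 for Cnn3 and 0.76 for Tmsb15b2, and without the kainate arrays of 24 h, at 0.70 for Vim and 0.86 for Tmsb15b2. S100a4 and S100a10 correlated with each other at r = 0.79, but at 0.15 without the kainate arrays of 24 h and 0.37 within groups.

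S100b had other neighbours. It was most like Mbp, myelin basic protein, at r = 0.75, followed by Mobp, another myelin protein (0.71), Agt, angiotensinogen, made in brain by astrocytes (0.70), Septin4, a septin (0.68), and Nek7, a kinase (0.67). Without the kainate arrays of 24 h Mbp kept r = 0.73, and within groups 0.56. Of these 5 genes Agt was the one that passed at 24 h, as lower by 1.02 on the log2 scale. S100b correlated with S100a4 at r = −0.21 and with S100a10 at −0.36. Within groups these were −0.16 and 0.03, and without the kainate arrays of 24 h −0.04 and −0.34.

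**Figure D4:**
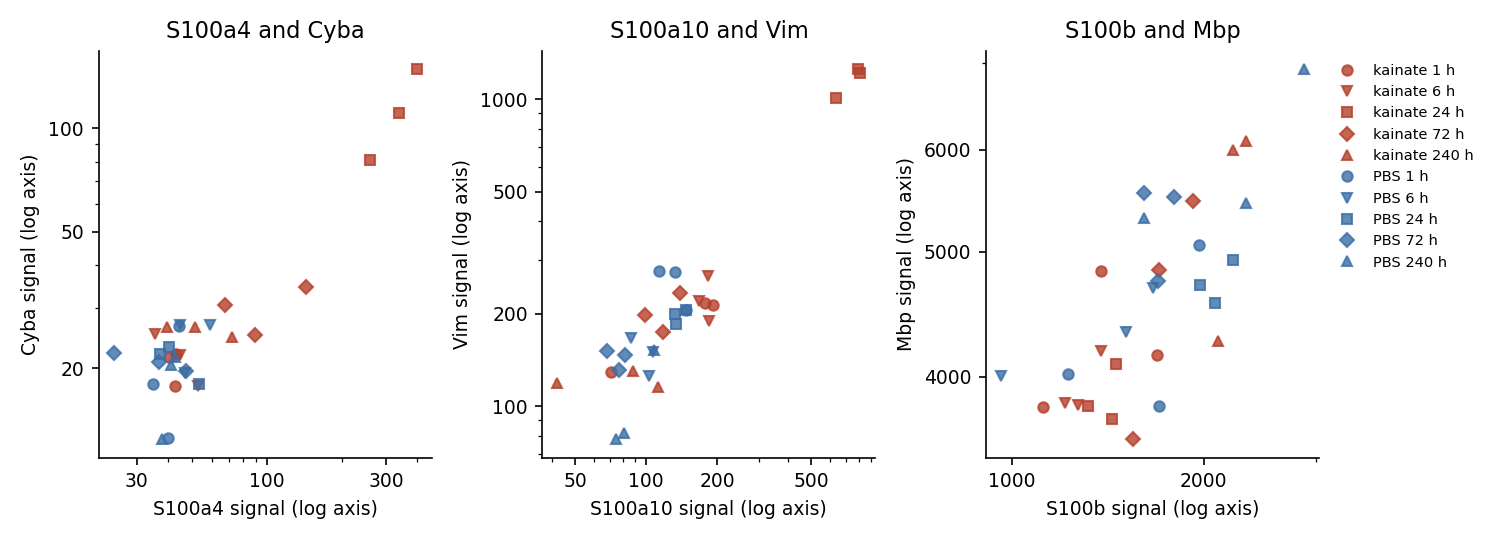
Signal (log axes) of S100a4, S100a10 and S100b against the gene most like each, Cyba, Vim and Mbp, on 30 arrays, with colour for kainate or PBS and shape for the time. For S100a4 and S100a10 the 3 kainate arrays of 24 h stand apart from the other 27, and for S100b the points spread along 1 band with the 240 h arrays mostly at the upper end.

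On the rat assembly GRCr8, 6 of the 8 measured genes lie on chromosome 2, in the order S100a1, S100a4, S100a8, S100a9, S100a7l2 and S100a10, with S100b on chromosome 20 and S100g on the X chromosome. S100a8 and S100a9 are direct neighbours in RefSeq, with 3 RefSeq genes between S100a4 and S100a8, 7 between S100a1 and S100a4, and 81 between S100a7l2 and S100a10. S100a1, S100a8 and S100a9 thus lie closer to S100a4 than S100a10 does.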

How the data were processed

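For 30 Affymetrix arrays the authors deposited a linear signal intensity for every probe set. No source used here describes how it was derived from the scans. Deposited arrays already had nearly equal trimmed means (150.1 to 150.2 with 2% of values dropped at either end), and replicate arrays correlated at r = 0.945 to 0.986 over 30 pairs. Groups follow the titles in the labels.

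Scaling set all arrays to 1 trimmed mean, values under the 20th percentile (10.95, log2 3.45) were raised to it, and log2 was taken. Of 8740 probe sets without the 59 array controls, those above the 40th percentile (35.2) on at least 3 of 30 arrays were tested: 6303 probe sets and 3702 genes. Of the 8740, 7006 had 1 gene symbol, 308 several and 1426 none. A gene is read by its tested probe set with the highest mean log2 value. limma 3.58.1 (R 4.3.3) fitted 1 mean per group over all arrays, letting the variance follow intensity, and p-values were adjusted by Benjamini-Hochberg over the table (threshold 0.05). There were 20 residual and 7.27 prior degrees of freedom.

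The S100 genes, lists, tests and alternatives were chosen with earlier results of these data known. The lists name, per time, up to 3 passing genes with the largest change whose groups do not overlap, and the likeness ranking names 5 genes per S100 gene. The lists were S100a10 partners and clients, S100a4 and S100b targets, other annexins, S100 receptors and their signal, other EF-hand proteins, and reactive astrocyte genes. Plots were drawn in Python 3.11.15 using matplotlib 3.10.9.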

Additional observations from a re-analysis of the deposited data

Results flagged for a closer look

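In S100a1 all kainate arrays lay below all PBS arrays at 6 h and above them at 72 h by S68809_s_at (log2 −0.31 and 0.27) and by rc_AI228548_g_at (−0.41 and 0.24). The difference between these times was not tested. The kainate effect differed between times by the limma F test over all tested probe sets for 9 of the 15 named list genes, where 6.75% of all tested genes did. These were Vim (adjusted p = 7.50e-07), Cd44 (0.000617), Timp1 (0.000745), Plat (0.00117), Socs3 (0.00155), Aldoc (0.00254), Plaur (0.00486), Hpca (0.0235) and Anxa5 (0.0379). They had been named for a difference at 1 of these times, so a difference between times was favoured by that choice.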

How the results depend on the processing

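Over all alternatives S100a4 ranged from 2.78 to 3.09 and S100a10 from 2.36 to 2.54 (log2 kainate minus PBS) at 24 h. Values near 0 changed sign, among them S100a10 at 1 h (−0.21 to 0.50) and 240 h (−0.51 to 0.20), S100b at 6 h (−0.30 to 0.09) and S100g at 24 h (−0.61 to 0.26). All 520 recomputed values moved by less than 1 SD between replicates, an SD that outlying arrays widen. Leaving out 1 of 3 arrays cannot move a value that far. The filter, the intensity trend, the replicate block and the arrays of 1 time alone do not alter these values at all. The outcome was thus fixed in advance for most of them, and only quantile normalization, a lower floor and array weights could have gone otherwise. Counts of calls moved more. With array weights 2 S100 probe sets were called at 6 h, S100a10 and S100a1, and with the 6 arrays of 6 h alone 1, S100a10. At 72 h the S100a4 call was lost, leaving 0, without the intensity trend, with the replicate block and with the 6 arrays of 72 h alone. Among PBS groups 0 were called by the F test with quantile normalization and without the intensity trend, and 0 between the sets of times without the trend. In the F test S100b was also lost with no filter, array weights and the 15 PBS arrays alone, where other probe sets were called, S100a1 with no filter and S100a10 in the others, and the same held between the sets of times, with S100a1 called in place of S100b under quantile normalization. Of the list genes 0 passed at 1 h with array weights and with 6 arrays alone, and 5 at 72 h with array weights. Leaving out 1 array gave 2 to 3 S100 calls at 24 h, 0 to 1 at 72 h, 0 to 1 in each PBS comparison and 0 at 1, 6 and 240 h, and 0 to 1, 5 to 6, 10 to 12, 0 and 0 list genes at 1, 6, 24, 72 and 240 h. Same-numbered kainate and PBS arrays deviated together only weakly (r −0.0731 to 0.168, over 0.1 in 3 of 15 pairs, best with their own number in 7), so replicate numbers were not taken to pair them. With the replicate block S100b lost its 24 h call, and 3 S100 probe sets were called. Calls over the whole table also moved: at 1 h 69 and 31 with 6 arrays alone, at 6 h 248 and 633 with array weights or 163 without kainate replicate 3, at 24 h 714 and 256 with 6 arrays alone, 431 without PBS replicate 3 or 336 without kainate replicate 3, at 72 h 3 and 153 with array weights, 10 with no filter or 0 to 1 without an array, at 240 h 3 and 13 with no filter, 19 without kainate replicate 1, 8 without kainate replicate 3, 6 without PBS replicate 2 or 0 without kainate replicate 2, and among PBS groups 1065 and 1755 with array weights, and between the sets of times 1269 and 838 without PBS replicate 3 of 72 h. The cause of these shifts was not tested. Dim probe sets limit what can be said of S100a8, S100a9 and S100g.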
